A study of Mus musculus with 4 samples.

Results

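Solute carriers are membrane proteins that move small molecules across the plasma membrane or the membranes of organelles. The genes described here encode the mitochondrial carriers (family 25) and the amino acid carriers of families 1, 3, 6, 7, 36, 38 and 43. They were taken as every probe set annotated to exactly 1 gene symbol made of Slc, 1 of these family numbers and a member number. This rule reads symbols and no measured value, but it was chosen with earlier results of these data known. The rule matched 218 probe sets of 107 symbols. Of these symbols, 104 are carriers, with 214 probe sets, among 18193 genes measured in the series. The other 3 (Slc7a6os, Slc36a1os and Slc6a19os) are genes on the opposite strand of a carrier and were kept out of all counts. Family 25 gave 44 carriers under this rule, which leaves out members with other symbols, such as Mtch1 and Mtch2. The amino acid families gave 60, of which 7 belong to family 1, 2 to family 3, 20 to family 6, 15 to family 7, 4 to family 36, 9 to family 38 and 3 to family 43. Slc25a21, Slc25a43, Slc25a52, Slc38a8 and Slc38a11 were among the carriers not analysed here.

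Mouse blood cells were profiled on 4 arrays, 1 for each population, in a study of how donor cells at different stages of differentiation perform in cloning by nuclear transfer. Granulocytes, the mature end cells of the neutrophil lineage, came from bone marrow by strong Gr-1 staining and high granularity, with a purity of 99.4%. The immature populations were haematopoietic progenitor cells (HPC), short-term repopulating stem cells (ST-HSC) and long-term repopulating stem cells (LT-HSC). Their gates used CD34, Sca-1 and c-Kit on cells that lacked lineage antigens. HPC were negative for Sca-1, and of the cells positive for Sca-1 those with CD34 were ST-HSC and those without were LT-HSC. No genotype or treatment sets the groups apart, and the labels state neither strain nor age. Each array received RNA from 50 to 200 cells after 2 rounds of amplification. In such bulk RNA, fewer cells of a type and less RNA per cell cannot be told apart.

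Most carriers of family 25 sit in the inner mitochondrial membrane and exchange adenine nucleotides, phosphate, carboxylates, amino acids, iron and cofactors between the cytosol and the matrix. Amino acid carriers of the plasma membrane take up, exchange or release amino acids, and some of them work only as a light chain bound to the heavy chain Slc3a2. Dividing blood progenitors depend on such uptake for protein synthesis, and amino acids inside the cell are sensed through the kinase complex mTORC1 and through the transcription factor Atf4.

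With 1 array per population there is no replicate, so no test was possible and no spread between animals or cultures is known. All values are signals on the scale as deposited, where the 2% trimmed mean of every array is 500.00. Signals under 120.1, the median of all pooled values and here called the floor, were set to it before differences were taken. A gene is counted as higher or lower in granulocytes where it lay at least 2-fold above or below each of the other 3 arrays. HPC were set against both stem cell arrays in the same way, and LT-HSC against ST-HSC. The fold given is the smallest of these, and "at least" marks a lower side that was at the floor. The only measure of error is the disagreement between probe sets of 1 gene. It was taken on the difference from the mean of the arrays compared against, over probe sets above the floor on every array compared. Its SD on the log2 scale was 0.85 for granulocytes (2874 genes), 0.57 for HPC (3511 genes) and 0.64 for the pair of stem cell arrays (3875 genes). A 2-fold difference is 1 log2 unit, so differences close to it are within about 1 to 2 such SDs. The SD does not cover folds with a side under the floor, and smallest differences can be set against it only roughly.

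The labels were set against markers of blood cell types. The summed signal of 9 granulocyte markers was 423449.7 in granulocytes, 576 in HPC and 639 in ST-HSC. It was 22747 in LT-HSC, where 6 of the 9 were above the floor, against 2 in HPC and 2 in ST-HSC. Mmp8, Mmp9 and Cxcr2 were under the floor in LT-HSC, whereas S100a8 gave 6783 and Ngp 5299. The lineage antigens gated out of that population included Gr-1 and CD11b, both present on granulocytes. In the order granulocytes, HPC, LT-HSC, ST-HSC, 8 stem cell markers summed to 933, 10278, 40288 and 25402, and 5 myeloid progenitor markers to 871, 64896, 3963 and 22189. The 5 monocyte and macrophage markers measured summed in this order to 15876, 12999, 849 and 1016, and the 4 B-lineage markers to 1384, 2328, 4956 and 481. The monocyte and macrophage sums of granulocytes and HPC were mostly Csf1r (13089 and 11928), while C1qa and C1qb were under the floor on all arrays. Of 6 cumulus cell markers, 4 were above the floor in granulocytes, with a sum of 8454 that was mostly Inhba (6566), against sums of 255 to 865 on the other arrays. Inhba was also above the floor in LT-HSC (459), Ptx3 was above it only in HPC (164), and Amh on no array. Of 7 oocyte markers, 4 were above the floor in granulocytes, with a sum of 1163 against 559 to 789 on the other arrays. The part of these other cell types in the results below was not tested. Counts were also made without LT-HSC among the reference arrays.

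Of the 104 carriers, 49 were above the floor on all 4 arrays, 40 on 1 to 3 arrays and 15 on none. The share above the floor on any array was 93.2% in family 25 and 80.0% in the amino acid families, against 79.2% of all genes. Between 69 and 72 carriers were above the floor on each array. The pairs with granulocytes held the most carriers at least 2-fold apart: 34 against HPC (32.7%, with 32.5% of all genes), 34 against LT-HSC (32.7%, with 33.8%) and 33 against ST-HSC (31.7%, with 33.7%). Among the 3 immature populations, 9 carriers differed between HPC and LT-HSC (8.65%, with 12.1% of all genes). HPC and ST-HSC differed in 17 (16.3%, with 12.7%), and LT-HSC and ST-HSC in 16 (15.4%, with 12.7%). These shares were near those of all genes.

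In granulocytes, 11 carriers were at least 2-fold higher than in each other population and 11 were at least 2-fold lower, 10.6% each. Of all genes, 8.90% were higher and 12.7% lower. Family 25 had 7 higher (15.9%) and 4 lower (9.09%), and the amino acid families had 4 higher (6.67%) and 7 lower (11.7%). The median log2 difference from the mean of the other 3 arrays was -0.04 for family 25 and 0 for the amino acid families, as it was for all genes. The quartiles were -0.92 and 0.65 for family 25 and -0.27 and 0.25 for the amino acid families. Genes under the floor on all arrays have a difference of 0, which narrows the quartiles. They were 6.82% of family 25 and 20.0% of the amino acid families. Under scaling to the hybridization controls the count was 2 higher and 16 lower, and over all genes the share of lower genes among those counted moved from 58.9% to 79.4%. The split into higher and lower carriers therefore changes with the scaling.

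**Figure D1:**
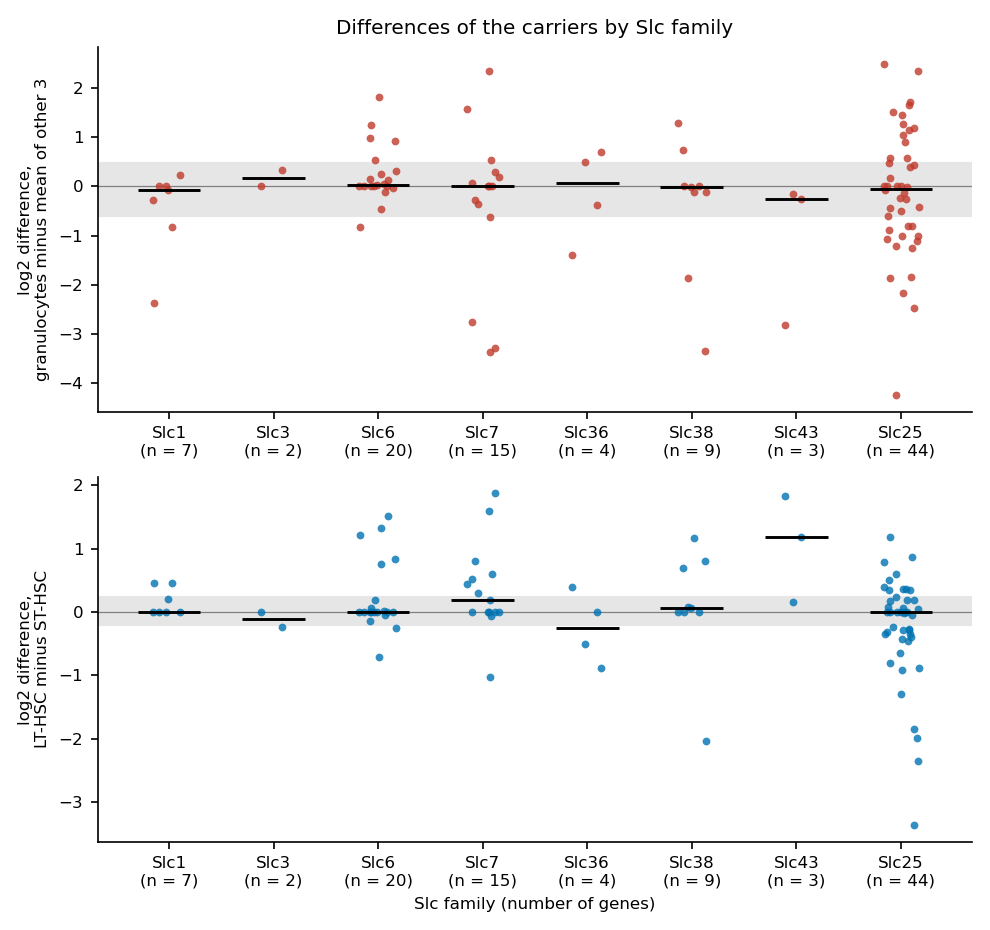
Each dot is 1 carrier, placed by Slc family on the horizontal axis and by its log2 difference on the vertical axis, for granulocytes minus the mean of the other 3 arrays and for LT-HSC minus ST-HSC. Black bars are family medians and the grey band runs between the quartiles of all 18193 genes. Family 25 has the lowest dot of the granulocyte panel, Slc25a4 at -4.24, and the widest spread of dots there. Genes under the floor on all arrays lie at 0.

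Among the carriers of adenine nucleotides and phosphate, 1 of 8 was higher in granulocytes and 1 was lower (12.5% each). The shares of all genes were 8.90% higher and 12.7% lower. Slc25a4, the ADP/ATP carrier that exchanges mitochondrial ATP for cytosolic ADP, gave 427 in granulocytes, 8207 in HPC, 7342 in ST-HSC and 8646 in LT-HSC. It was 17.2-fold lower in granulocytes, the largest such difference of any carrier, while the other 3 arrays were close together. Of its 3 other probe sets, 1 was under the floor everywhere and the other two were 13.5-fold and 11.6-fold lower. Slc25a5, the second ADP/ATP carrier, did not show this difference. It gave 13679.6 in granulocytes, between 11822 in LT-HSC and 19017 in HPC, with 18527 in ST-HSC. All 8 of its probe sets were above the floor on all arrays, and none was as much as 2-fold lower in granulocytes, the largest difference being 1.94-fold. Slc25a31, the germline ADP/ATP carrier, was under the floor on all arrays, with its highest signal of 97.5 in granulocytes. Slc25a3, which brings phosphate into the matrix, gave 10388 in granulocytes, 24336 in HPC, 23016 in ST-HSC and 18408 in LT-HSC. Its smallest log2 difference was -0.83, under 2-fold. Its difference from the mean of the other 3 arrays was -1.07, with an SD between probe sets of 0.85 for this measure.

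Slc25a24, a calcium-regulated carrier that exchanges ATP-Mg for phosphate, stood the other way. Its signal was 3047 in granulocytes, 466 in HPC, 511 in ST-HSC and 671 in LT-HSC, 4.54-fold higher. A second probe set read 159.8 in granulocytes and was under the floor on the other arrays. Its relative Slc25a25 was under the floor in granulocytes (21.6) and gave 502 in HPC, 169 in ST-HSC and 256 in LT-HSC on the probe set used. A second probe set had the same direction (90.5 in granulocytes, 176 to 263 on the others), and the third the opposite, with 324 in granulocytes and 138 to 220.5 on the others. Slc25a23 gave 246 in granulocytes and 418 to 440.2 elsewhere, under 2-fold.

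The pyrimidine nucleotide carriers Slc25a33 and Slc25a36 differed in opposite directions. Slc25a33 gave 6404 in granulocytes, 1502 in HPC, 1148 in ST-HSC and 1179 in LT-HSC, 4.26-fold higher and with no other probe set. Slc25a36 gave 2955 in granulocytes, 12258 in HPC, 13585 in ST-HSC and 14261 in LT-HSC, 4.15-fold lower. A second probe set of Slc25a36 was 10.9-fold lower, from 33.4 against 1311 to 2205. The third, with 132 in granulocytes, 124 in HPC, 359 in ST-HSC and 74.0 in LT-HSC, showed no difference and ends the count of this gene when the first probe set by name is used.

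The promoters of both pyrimidine carriers are shown because this pair differed in opposite directions, and both hold the E-box CACGTG, a palindrome known as a binding sequence of the Myc and Usf families of factors. Each window is the 250 bases before the start site in RefSeq, build GRCm38.p6, 5′ to 3′ on the gene's own strand, with the match in capitals. The Slc25a33 window is chr4:149774268-149774517 on the minus strand, and the match lies at -8 to -3 from the start site. The Slc25a36 window is chr9:97111042-97111291 on the minus strand, with the match at -187 to -182.
Slc25a33: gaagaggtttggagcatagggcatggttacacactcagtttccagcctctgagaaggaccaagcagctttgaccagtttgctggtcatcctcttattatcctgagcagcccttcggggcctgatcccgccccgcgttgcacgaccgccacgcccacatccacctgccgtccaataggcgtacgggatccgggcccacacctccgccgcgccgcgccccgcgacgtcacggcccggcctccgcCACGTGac
Slc25a36: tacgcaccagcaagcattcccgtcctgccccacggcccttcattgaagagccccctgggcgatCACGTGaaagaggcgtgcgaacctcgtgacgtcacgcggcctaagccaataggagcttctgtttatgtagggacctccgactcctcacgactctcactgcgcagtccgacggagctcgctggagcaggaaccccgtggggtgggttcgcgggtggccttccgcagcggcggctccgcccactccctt
CACGTG was present in 6.02% of all 32851 promoters in the table, or 6.86% of 27025 genes. Of the 77 carriers with a promoter in the table, 16 held it (20.8%): Slc1a6, Slc1a7, Slc25a1, Slc25a13, Slc25a14, Slc25a15, Slc25a31, Slc25a33, Slc25a36, Slc36a1, Slc38a5, Slc38a7, Slc43a1, Slc6a16, Slc6a3 and Slc7a14. These 16 include genes higher in granulocytes (Slc25a33 and Slc6a3), lower (Slc25a36 and Slc25a14) and under the floor on all arrays (Slc1a6, Slc25a31, Slc38a5 and Slc6a16). A match describes the letters of this window only.

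Other nucleotide and cofactor carriers did not reach 2-fold in granulocytes on the probe sets used. Slc25a51, which carries NAD into mitochondria, gave 1286 in granulocytes, 2365 in HPC, 3131 in ST-HSC and 2343 in LT-HSC, under 2-fold at its smallest. Its other probe sets disagreed with each other, with 29.8 in granulocytes against 695 to 911 on 1 of them (at least 5.79-fold lower) and 651 in granulocytes against 586 to 1757 on the other. Slc25a26, the carrier of the methyl donor S-adenosylmethionine, lay between 139 and 202 on all arrays. Slc25a32, the mitochondrial folate carrier, gave 558 in granulocytes and 586 in ST-HSC, and 155 and 164 in HPC and LT-HSC, so that granulocytes lay with ST-HSC.

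Mitoferrins bring iron into mitochondria for haem and iron-sulphur clusters. Slc25a37, or mitoferrin-1, gave 1847 in granulocytes, 681 in HPC, 606 in ST-HSC and 505 in LT-HSC, 2.71-fold higher. Slc25a28, or mitoferrin-2, gave 2190.4 in granulocytes, 2697 in HPC, 2930.2 in ST-HSC and 3325 in LT-HSC, with a smallest log2 difference of -0.30. The granulocyte signal was therefore above all other arrays for the first and below them, by less than 2-fold, for the second. Signals of 4 erythroid markers, the lineage best known for mitoferrin-1, summed to 569.9 in granulocytes, 621 in HPC, 242 in ST-HSC and 388 in LT-HSC. Of these, Hba-a1 was above the floor only in granulocytes (174) and Klf1 only in HPC (188). Epor gave 251 in granulocytes, 355 in HPC, 56.2 in ST-HSC and 148 in LT-HSC, and Slc4a1 was under the floor on all arrays.

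Of 12 mitochondrial carriers of amino acids, carnitine and glutathione, 2 were higher in granulocytes (16.7%) and none lower, against 8.90% and 12.7% of all genes. Slc25a12, an aspartate/glutamate carrier of the malate-aspartate shuttle, gave 6188 in granulocytes, 2891 in HPC, 2152 in ST-HSC and 2775 in LT-HSC, 2.14-fold higher. Its other probe sets disagreed: 1 was higher in granulocytes by 1.69-fold and 1 was lower by 1.69-fold. The second aspartate/glutamate carrier, Slc25a13, was under the floor in granulocytes (31.2), with 228 in HPC, 540.1 in ST-HSC and 137 in LT-HSC. Slc25a44, a carrier of branched-chain amino acids, gave 755 in granulocytes, 302 in HPC, 361 in ST-HSC and 193 in LT-HSC, 2.09-fold higher. Its other probe sets showed no such difference, with 192 in granulocytes against 100.0 to 196, and 315 in granulocytes with 299 in LT-HSC and more in the other populations. Slc25a11, which exchanges oxoglutarate for malate in the same shuttle as Slc25a12, gave 3514 in granulocytes, 752 in HPC, 1440.5 in ST-HSC and 1142 in LT-HSC, 2.44-fold higher. Among members that did not reach 2-fold, Slc25a20, the carnitine/acylcarnitine carrier, gave 2265 in granulocytes, inside the range of 2042 to 3779.6 on the other arrays. Slc25a39, a glutathione carrier, gave 4255 in granulocytes and 6071 to 8369 elsewhere. Slc25a1, the citrate carrier, gave 489 in granulocytes and 728 to 1106 elsewhere.

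Of 11 uncoupling-type and orphan carriers, 1 was higher in granulocytes (9.09%) and 2 were lower (18.2%), against 8.90% and 12.7% of all genes. Slc25a30 gave 556 in granulocytes, 229.6 in HPC, 198 in ST-HSC and 167 in LT-HSC, 2.42-fold higher. The next of its 5 probe sets gave 353 in granulocytes and 146 to 311 on the others, 1.13-fold higher. Its close relative Slc25a14 was under the floor in granulocytes (20.7), with 530.5 in HPC, 264 in ST-HSC and 604 in LT-HSC, at least 2.20-fold lower. Slc25a53, whose substrate is unknown, read 25.4 in granulocytes, 281 in HPC, 613 in ST-HSC and 468 in LT-HSC, at least 2.34-fold lower. Its second probe set showed no such difference, with 169 in granulocytes, 169 in ST-HSC, 393 in LT-HSC and 422 in HPC. Slc25a45 gave 2680.4 in granulocytes and 1149 to 1400.3 elsewhere, just under 2-fold against the nearest array.

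**Figure D2:**
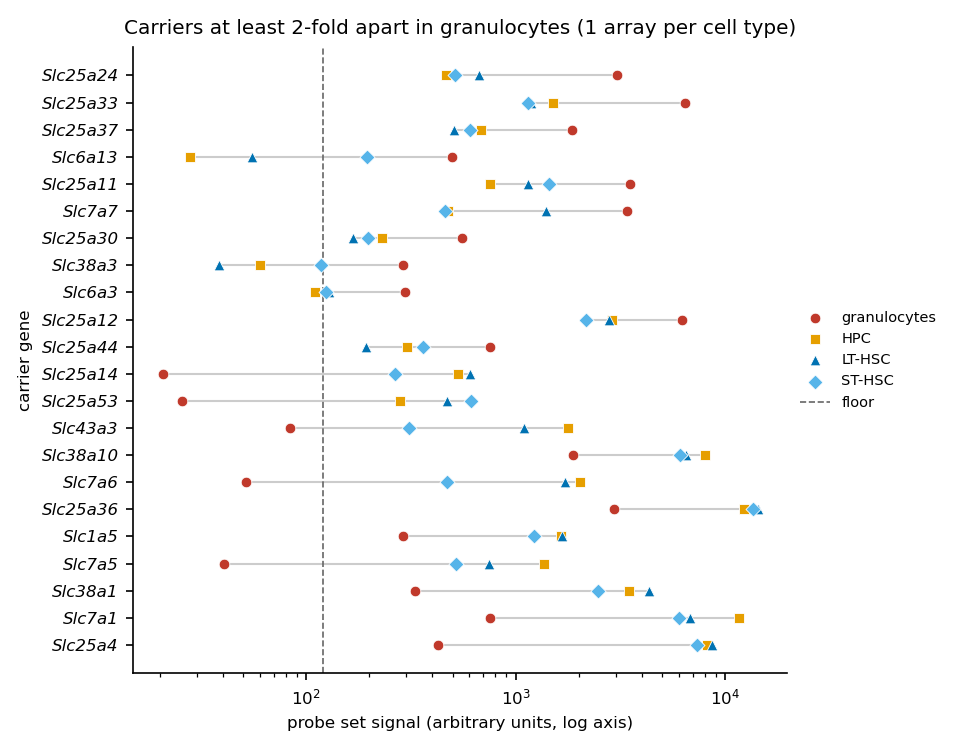
Signals on a log axis of the 22 carriers at least 2-fold higher or lower in granulocytes than in each other population, with 1 point per array. The dashed line is the floor of 120.1. The granulocyte point of Slc25a4 (427) lies far below the other 3 (7342 to 8646), and that of Slc25a33 (6404) lies above the other 3 (1148 to 1502).

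The heteromeric amino acid carriers pair a light chain of family 7 with a heavy chain of family 3. The heavy chain Slc3a2 was near level, with 8437 in granulocytes, 7138 in HPC, 7037 in ST-HSC and 6012 in LT-HSC, a smallest log2 difference of 0.24. The other heavy chain, Slc3a1, was under the floor on all arrays. The light chains were not all level. Of 10 measured, 2 were lower in granulocytes, 1 was higher and 7 were neither, against 12.7% of all genes lower and 8.90% higher. Only 8 of the 10 were above the floor on any array, so no difference could be counted for the rest. Whether light chains as a group differ from all genes was not tested.

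Slc7a5, the light chain that takes up leucine and other large neutral amino acids, was under the floor in granulocytes (40.4), with 1362 in HPC, 519.8 in ST-HSC and 746 in LT-HSC, at least 4.33-fold lower. Slc7a6, a light chain that exchanges cationic for neutral amino acids, read 51.8 in granulocytes, 2017 in HPC, 470.3 in ST-HSC and 1716 in LT-HSC, at least 3.92-fold lower. Its second probe set gave 33.4 against 780.1 to 906, at least 6.50-fold lower. Slc7a7, which does the same kind of exchange as Slc7a6, was higher instead. It gave 3412 in granulocytes, 476 in HPC, 461 in ST-HSC and 1390.5 in LT-HSC, 2.45-fold higher, where LT-HSC was the nearest array. Without LT-HSC among the reference arrays the log2 difference of Slc7a7 was 2.84.

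Slc7a11, the cystine/glutamate exchanger that supplies cystine for glutathione, gave 572 in granulocytes, 359 in HPC, 121 in ST-HSC and 164 in LT-HSC. Its smallest log2 difference was 0.67, under 2-fold. On its second probe set it was above the floor only in granulocytes (289), with 9.50 to 50.5 on the other arrays, at least 2.41-fold higher. Slc7a8 gave 86.1 in granulocytes, 116 in HPC, 325 in ST-HSC and 160.1 in LT-HSC. On the arrays of granulocytes, HPC, LT-HSC and ST-HSC, Slc7a9 gave 147, 104, 116 and 55.9, and Slc7a10 gave 86.9, 161, 166 and 135. Slc7a8, Slc7a9 and Slc7a10 lay near or under the floor on most arrays.

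The promoters of Slc7a11 and Slc7a7 are shown because both are light chains with a match to TGATGNAA, the composite C/EBP and Atf sequence through which Atf4 acts on amino acid response genes. They were read as above, as 250 bases before the start site in RefSeq GRCm38.p6, with matches on either strand in capitals. The Slc7a11 window is chr3:50443614-50443863 on the minus strand, with a match at -66 to -59 and a second at -47 to -40. The second match lies on the strand opposite to the one printed, so it appears in the window as TTGCATCA. The Slc7a7 window is chr14:54417945-54418194 on the minus strand, before 1 of 5 start sites in the table, with a match at -141 to -134.
Slc7a11: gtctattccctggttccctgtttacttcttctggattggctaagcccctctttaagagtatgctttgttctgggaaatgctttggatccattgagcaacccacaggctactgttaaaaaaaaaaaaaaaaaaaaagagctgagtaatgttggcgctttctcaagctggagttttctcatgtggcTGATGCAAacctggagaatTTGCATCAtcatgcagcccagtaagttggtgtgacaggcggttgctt
Slc7a7: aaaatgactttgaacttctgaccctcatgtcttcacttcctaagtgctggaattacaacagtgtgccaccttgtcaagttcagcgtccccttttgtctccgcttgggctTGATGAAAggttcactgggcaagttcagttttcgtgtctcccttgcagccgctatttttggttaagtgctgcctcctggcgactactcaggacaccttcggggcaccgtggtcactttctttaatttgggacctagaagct
TGATGNAA was present in 3.45% of all promoters, or 3.91% of genes, and in 3 of 77 carriers (3.90%), the third being Slc6a21. The share among carriers was thus that of all genes.

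The cationic amino acid transporters of family 7 need no heavy chain. Slc7a1, which takes up arginine and lysine, gave 753 in granulocytes, 11562 in HPC, 5989 in ST-HSC and 6821 in LT-HSC, 7.95-fold lower. A second probe set was 2.67-fold lower (624 against 1669 to 3069), and the third was under the floor on all arrays. Of the other 4 members of this group, none reached 2-fold, as with Slc7a4 at 596 in granulocytes and 375 to 477 elsewhere. Another probe set of Slc7a4 was under the floor in granulocytes (11.0) and HPC (106), with 306 in ST-HSC and 237 in LT-HSC. Slc7a2 was above the floor only in LT-HSC (210.1).

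**Figure D3:**
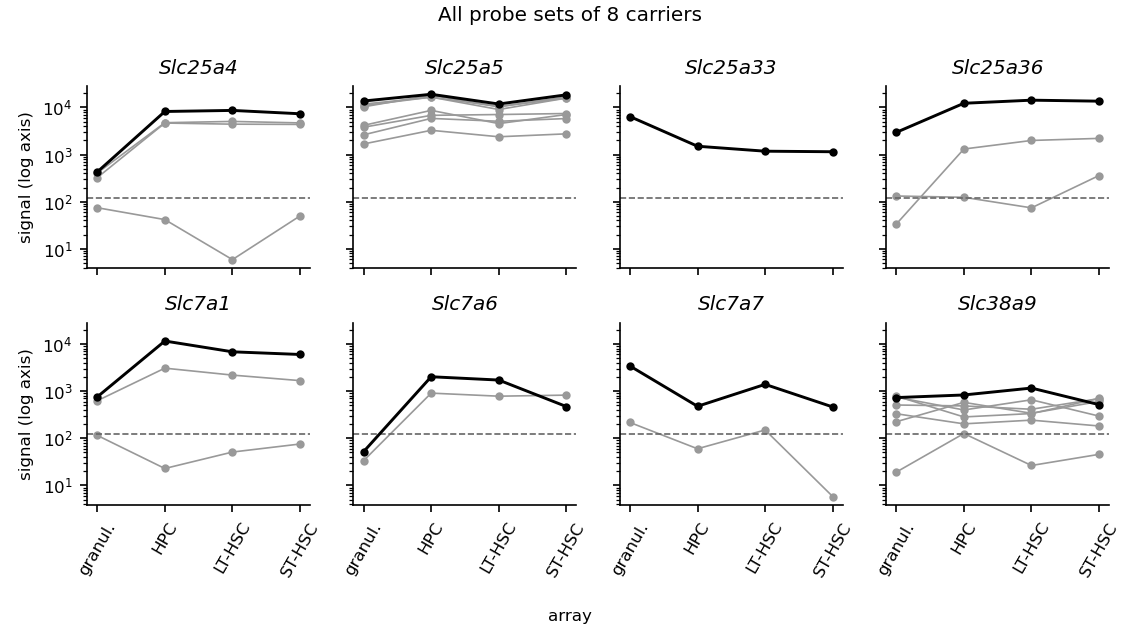
Signals on a log axis of every probe set of 8 carriers on the 4 arrays, with the probe set that stands for the gene in black and the others in grey, and the floor as a dashed line. The probe sets of Slc25a4 above the floor run together, as do both of Slc7a6 in granulocytes, whereas those of Slc38a9 cross.

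Neutral amino acid exchangers and sodium-coupled carriers held further genes that were lower in granulocytes. Slc1a5, which exchanges glutamine and other neutral amino acids, gave 291 in granulocytes, 1638 in HPC, 1220.5 in ST-HSC and 1666 in LT-HSC, 4.19-fold lower. Its relative Slc1a4 gave 339 in granulocytes and 507 to 693 elsewhere, under 2-fold. Slc38a1, a sodium-coupled glutamine carrier, gave 329 in granulocytes, 3481 in HPC, 2459 in ST-HSC and 4309 in LT-HSC, 7.47-fold lower. Slc38a2, a carrier of the same kind, was level on the probe set used, at 13075 in granulocytes, 15362 in HPC, 12047 in ST-HSC and 12662 in LT-HSC. A second, with 2083 in granulocytes and 493 to 993 on the others, was 2.10-fold higher, and the third gave 325 against 287 to 459. Slc38a10, a further member of family 38, gave 1878 in granulocytes, 8006 in HPC, 6091 in ST-HSC and 6458 in LT-HSC, 3.24-fold lower. Of its other probe sets above the floor, 4 had the same direction and 1 the opposite, and with the median over its probe sets the log2 difference was -0.01. Slc43a3, a carrier of purine bases despite its family, was under the floor in granulocytes (83.6), with 1781 in HPC, 308 in ST-HSC and 1093 in LT-HSC, at least 2.56-fold lower.

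The amino acid families had 3 more genes that were higher in granulocytes, all at low signal. Slc6a13, a GABA and taurine transporter, gave 498 in granulocytes, 27.9 in HPC, 196 in ST-HSC and 55.1 in LT-HSC, 2.55-fold higher. Slc38a3, a glutamine carrier of liver and kidney, was above the floor only in granulocytes (291), with 60.2 in HPC, 118 in ST-HSC and 38.5 in LT-HSC, at least 2.42-fold higher. Slc6a3, the dopamine transporter, gave 296 in granulocytes, 110.4 in HPC, 124 in ST-HSC and 129 in LT-HSC, 2.30-fold higher. The taurine transporter Slc6a6 had no such difference, with 1911 in granulocytes, 1756 in HPC, 1190.4 in ST-HSC and 2016 in LT-HSC. Of the 5 glutamate transporters of family 1, none differed in granulocytes by 2-fold. None of them was above the floor on more than 1 array, so a lower signal in granulocytes could not be counted. Of the genes on the opposite strand, Slc7a6os gave 136 in granulocytes, 321 in HPC, 797 in ST-HSC and 533 in LT-HSC, 2.36-fold lower. Slc36a1os and Slc6a19os were each above the floor on only 1 array, not that of granulocytes, so no difference could be counted.

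Of the 22 carriers counted in granulocytes, 4 stayed at least 2-fold in the same direction under all 10 other settings tried, namely Slc25a4, Slc38a1 and Slc1a5 (lower) and Slc25a33 (higher). Leaving out LT-HSC lost none of the 22 and gave 11 higher and 13 lower, with 10.4% of all genes higher and 14.6% lower. The 2 added were Slc25a15 (log2 difference -3.62 from HPC and -3.56 from ST-HSC, against -0.20 from LT-HSC) and Slc25a3 (-1.23 and -1.15, against -0.83). Scaling to hybridization controls lost 9 of the 11 higher genes, leaving Slc25a24 and Slc25a33, and kept all 11 lower ones. The first probe set by name also lost Slc7a1, Slc25a36, Slc38a10, Slc25a24 and Slc25a30. The median over probe sets lost Slc25a12, Slc25a30, Slc25a44, Slc38a3, Slc38a10 and Slc7a7. A floor at the 75th percentile of all values lost Slc25a14, Slc25a30, Slc25a44, Slc25a53, Slc38a3, Slc43a3, Slc6a13, Slc6a3, Slc7a5 and Slc7a6. By contrast, quantile normalization lost Slc25a12, and a floor at the 25th percentile lost Slc25a53.

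In HPC, 3 carriers were at least 2-fold higher than in both stem cell arrays (2.88%) and none was lower. Of all genes, 2.12% were higher and 2.69% lower. Slc25a42, which carries coenzyme A into mitochondria, gave 365 in HPC, 136 in ST-HSC and 155 in LT-HSC, 2.35-fold higher, with 196 in granulocytes. Slc7a11 gave 359 in HPC against 121 in ST-HSC and 164 in LT-HSC, 2.19-fold higher, while its second probe set was under the floor on all 3 of these arrays. Slc36a2, a proton-coupled carrier of proline and glycine, was above the floor only in HPC (259), with 31.0 in LT-HSC, 10.4 in ST-HSC and 27.7 in granulocytes, at least 2.16-fold higher. All 3 lay near the floor and none stayed at 2-fold under every other setting. With the median over probe sets, Slc25a42 and Slc7a11 no longer reached 2-fold. Against ST-HSC alone, HPC had 11 carriers higher and 6 lower, with 6.47% of all genes higher and 6.21% lower.

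LT-HSC and ST-HSC, the pair divided by CD34, had 9 carriers higher in LT-HSC (8.65%) and 7 lower (6.73%). Of all genes, 7.28% were higher in LT-HSC and 5.41% lower. The families divided unequally. The amino acid families had 8 higher (13.3%) and 2 lower (3.33%), and family 25 had 1 higher (2.27%) and 5 lower (11.4%). The median difference of both was 0, and this division was not tested.

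Mitochondrial carriers lower in LT-HSC were led by Slc25a15, the ornithine carrier that links mitochondria to the urea cycle. It gave 138 in LT-HSC, 1416 in ST-HSC, 1477 in HPC and 22.5 in granulocytes, 10.3-fold lower in LT-HSC than in ST-HSC. LT-HSC lay near the floor, and HPC with ST-HSC. The second probe set of Slc25a15 was under the floor on all arrays. Slc25a17, the peroxisomal carrier of coenzyme A, FAD and NAD, gave 122 in LT-HSC and 620.3 in ST-HSC, 5.08-fold lower. Slc25a13 gave 137 in LT-HSC and 540.1 in ST-HSC, 3.94-fold lower. The folate carrier Slc25a32 gave 164 in LT-HSC and 586 in ST-HSC, 3.57-fold lower. Slc25a47 gave 121 in LT-HSC and 297 in ST-HSC, 2.45-fold lower. The exception was Slc25a14, with 604 in LT-HSC and 264 in ST-HSC, 2.29-fold higher. All 5 of the lower genes had an LT-HSC signal between 121 and 164, close to the floor.

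Among the amino acid carriers, those of family 43 were higher in LT-HSC. Slc43a3 gave 1093 in LT-HSC and 308 in ST-HSC, 3.55-fold higher, with 1781 in HPC. Slc43a2, a carrier that releases large neutral amino acids, gave 6480.1 in LT-HSC and 2844 in ST-HSC, 2.28-fold higher, with 3356 in HPC and 3319 in granulocytes. Slc43a1 gave 251 and 225, with no such difference. The light chain Slc7a6 gave 1716 in LT-HSC and 470.3 in ST-HSC, 3.65-fold higher, but its second probe set gave 780.1 and 822. Slc7a8, a light chain for neutral amino acids, gave 160.1 and 325, 2.03-fold lower in LT-HSC.

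Family 6 had 3 members higher in LT-HSC on the probe sets used. Slc6a8, the creatine transporter, gave 345 in LT-HSC and 36.7 in ST-HSC, at least 2.87-fold higher, with 668 in HPC. Its second probe set was level (161 and 155), and the count of this gene is lost with the median over probe sets. Slc6a15, a carrier of branched-chain amino acids and proline, gave 309.7 and 123, 2.51-fold higher. Slc6a9, a glycine transporter, gave 664 and 285, 2.33-fold higher, with 1004 in HPC, and its second probe set gave 285 and 228, under 2-fold. Slc6a6 was not counted, at 2016 in LT-HSC and 1190.4 in ST-HSC (1.69-fold). Another of its probe sets was 4.39-fold higher in LT-HSC, with 1046 and 238. In family 38 the pair of genes that differed went opposite ways. Slc38a6 gave 265 in LT-HSC, 1088 in ST-HSC and 1138 in HPC, 4.10-fold lower in LT-HSC. Slc38a9, the lysosomal arginine carrier that signals to mTORC1, gave 1160.5 in LT-HSC and 516 in ST-HSC, 2.25-fold higher. Of 5 other probe sets of Slc38a9 above the floor, 2 had the same direction and 3 the opposite, and with the median over its probe sets the log2 difference was -0.61.

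**Figure D4:**
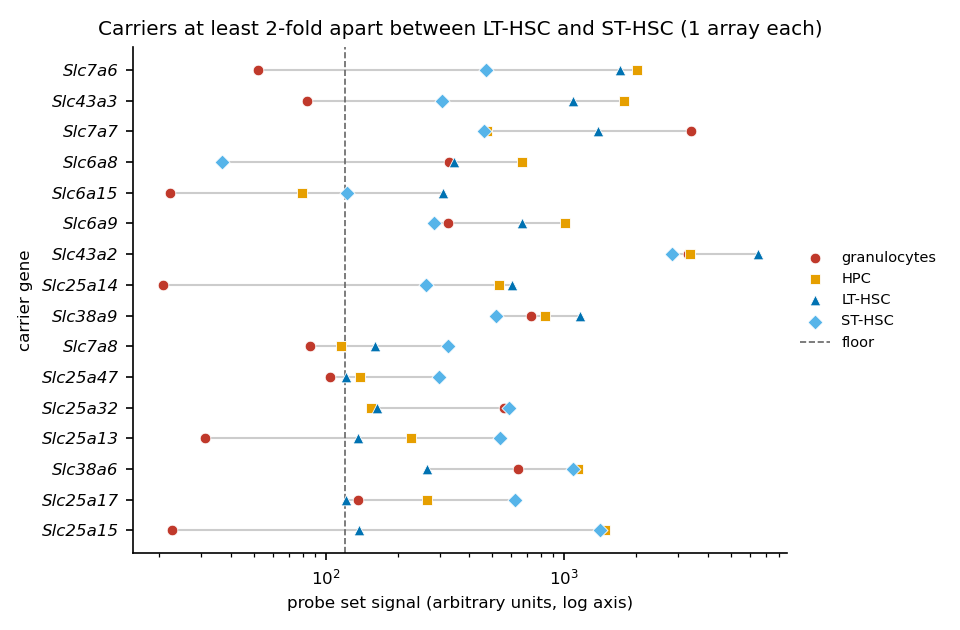
Signals on a log axis of the 16 carriers at least 2-fold apart between LT-HSC and ST-HSC, with 1 point per array and the floor of 120.1 as a dashed line. The LT-HSC points of Slc25a15 (138), Slc25a17 (122), Slc25a13 (137), Slc25a32 (164) and Slc25a47 (121) lie at or near the floor, and that of Slc43a2 (6480.1) lies above all other arrays.

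The LT-HSC array also carried the granulocyte markers given above. Relative to the granulocyte array, the LT-HSC signal of the 9 markers was between 0.135% and 11.9%, with a median of 5.07%. For Slc7a7, with 1390.5 in LT-HSC and 461 in ST-HSC (3.01-fold higher), it was 40.8% of the granulocyte signal. For the other 8 carriers higher in LT-HSC, the LT-HSC signal exceeded that of granulocytes, from 105% for Slc6a8 to 3313% for Slc7a6. These percentages were taken on signals without the floor. In granulocytes Slc7a6, Slc25a14, Slc43a3 and Slc6a15 were under the floor, as were Mmp8, Mmp9 and Cxcr2 in LT-HSC, so their percentages are rough. Of the 16 carriers, Slc43a2 and Slc43a3 stayed at least 2-fold in the same direction under all 9 other settings.

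Genes around these carriers were described from 6 lists of amino acid and mitochondrial pathways, for granulocytes against each other array. The lists were chosen with earlier results of these data known. Of 19 cytosolic aminoacyl-tRNA synthetases, which load amino acids onto tRNA, 11 were lower in granulocytes and none was higher, with a median log2 difference of -1.94. Eprs gave 122 in granulocytes and 3993 to 6078 elsewhere, 32.8-fold lower. Iars was at least 25.5-fold and Aars 12.7-fold lower, and Tars gave 93.3 in granulocytes against 2998 to 4855 elsewhere. Of 20 genes of mitochondrial protein import, 8 were lower and none was higher, with a median of -0.98. Hspa9, the chaperone that pulls proteins into the matrix, gave 548 in granulocytes and 12319.9 to 16665 elsewhere, 22.5-fold lower. Timm50 was at least 6.37-fold lower, but its other probe set above the floor went the opposite way. Timm8a1 was 5.62-fold and Timm10 4.93-fold lower, with LT-HSC the nearest array. The log2 difference of Timm8a1 was -2.49 from LT-HSC, -4.23 from HPC and -4.29 from ST-HSC, and that of Timm10 -2.30, -3.07 and -3.40.

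The amino acid starvation response had 5 of 14 genes lower in granulocytes and none higher, with a median of -0.31. Eif2ak4, the kinase that senses uncharged tRNA, was at least 16.5-fold lower (106 against 1987 to 3808) and Cebpg 8.68-fold lower on the probe sets used. The other probe sets above the floor, 1 of Eif2ak4 and 2 of Cebpg, went the opposite way. Ddit4 was 3.13-fold, and Chac1 and Trib3 each 2.03-fold lower. The 1 other probe set of Trib3 was neither above nor below all other arrays in granulocytes. Atf4 itself gave 14912 in granulocytes and 9946 to 11922 elsewhere, under 2-fold. Of 30 genes of amino acid sensing by mTORC1, 6 were lower and 2 were higher, with a median of -0.04. Seh1l was 9.34-fold and Sesn1 8.41-fold lower, each with 3 other probe sets of the same direction and none opposite. Bmt2 was 3.01-fold and Castor2 2.68-fold lower, each with 1 other probe set of the opposite direction and none of the same. By contrast, the lysosomal anchor subunits Lamtor4 and Lamtor1 were 6.75-fold and 3.01-fold higher.

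Of 17 other mitochondrial membrane transport proteins, 2 were higher in granulocytes and 4 were lower, with a median of 0.36. This list includes Ucp1, Ucp3, Mtch1 and Mtch2, members of family 25 that the symbol rule did not match. Sfxn5 was 7.63-fold higher and Mpc1, a subunit of the pyruvate carrier, 2.42-fold higher. Sfxn3 was 5.06-fold, Mtch1 3.54-fold, the outer membrane channel Vdac3 2.74-fold and Mtch2 2.13-fold lower. Of 13 genes of haem and iron-sulphur synthesis, 2 were higher and 5 lower, with a median of 0. Alas1, the first enzyme of haem synthesis, gave 11592 in granulocytes and 859 to 2523 elsewhere, 4.59-fold higher, and the scaffold Iscu was 3.28-fold higher. Alad and Uros, enzymes of later steps of haem synthesis, were at least 16.6-fold and at least 4.17-fold lower. Nfs1 was 2.84-fold and Glrx5 2.74-fold lower. Uros and Nfs1 each had 1 other probe set of the opposite direction and none of the same. For Alad and Sfxn5, the 1 other probe set above the floor was neither above nor below all other arrays in granulocytes. All of these shares stand against 8.90% of all genes higher and 12.7% lower.

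**Figure D5:**
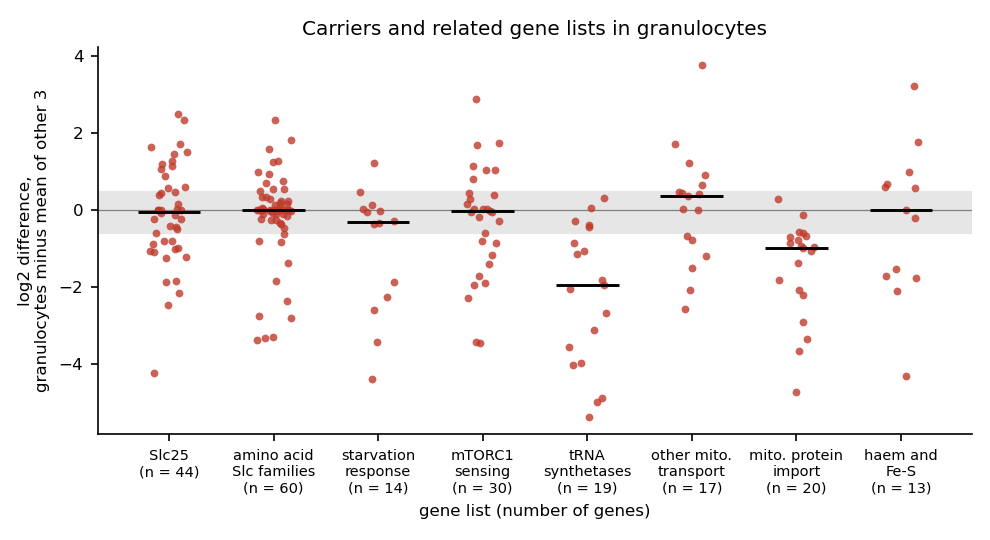
Each dot is 1 gene, placed by its log2 difference of granulocytes minus the mean of the other 3 arrays, for family 25, the amino acid carrier families and the 6 pathway lists. The medians are -1.94 for the aminoacyl-tRNA synthetases and -0.98 for mitochondrial import, against -0.04 for family 25 and 0 for the amino acid families.

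Between LT-HSC and ST-HSC, where 7.28% of all genes were higher in LT-HSC and 5.41% lower, the starvation response had 3 of 14 genes higher (Trib3, Asns and Nupr1) and none lower. Sensing by mTORC1 had 6 of 30 higher and none lower, and the synthetases 3 of 19 higher and none lower. Mitochondrial import had 5 of 20 lower in LT-HSC (Timm8a1, Timm8b, Timm23, Timm10 and Timm9) and none higher. Other mitochondrial transport had 2 of 17 lower (Mpc1 and Sfxn4), and haem and iron-sulphur synthesis 1 of 13 lower (Isca1), with none higher in either.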

How the data were processed

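Per the labels' protocols, sorted cells were handled in packs of 50 or 100 inside empty egg coats, and RNA of 50 to 200 cells per population was amplified in 2 rounds, labelled with biotin and hybridized to 1 single-colour Affymetrix array. The deposited table holds the linear intensity of each probe set. The authors' summary software is not given in the sources used here. Such amplification favours the 3′ ends of transcripts and adds noise when cells are few. The number of arrays, 1 per population, limits the precision, and no test could be made.

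The 2% trimmed mean was 500.00 on every array, so intensities were used as the authors deposited them. Of 45101 probe sets, 64 controls were left out. GEO's platform annotation gave 1 symbol for 34945 probe sets, several for 932 and none for 9160. All 104 carriers were found by Entrez number in RefSeq (GRCm38.p6), with 0 symbols updated. No genome build applies to the intensities. Of the carriers, 77 had a promoter in the RefSeq table.

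Each gene was read from 1 probe set, that of highest mean log2 value over the arrays, and levels of different genes were not compared. The floor, the fold and the comparisons are defined in the report. Named were every carrier at least 2-fold different, up to 15 per direction, Slc3a2 with its light chains, the ADP/ATP, phosphate and iron carriers, and up to 4 genes per direction of each pathway list. Other members stand as examples of their role group, and some were chosen after their values were seen. The members, the pathway lists and the marker lists were chosen with earlier results of these data known. Alternatives were other scalings, floors and probe set rules, 4-fold, and LT-HSC left out of the reference arrays. The procedure was tested on simulated data. The tools were pandas 2.3.3 and numpy 2.4.6 in Python 3.11.15, with scipy 1.17.1, and figures were drawn with matplotlib 3.10.9.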

Additional observations from a re-analysis of the deposited data

How the results depend on the processing

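Counts are carriers higher and lower, and the cause of a change was not tested unless the setting itself removes genes. No paired analysis was possible because each population has 1 array. In granulocytes (11 and 11) the counts were 2 higher with hybridization control scaling, 6 and 6 with the floor at the 75th percentile, 7 higher with the median over probe sets, 6 lower with only genes above the floor, and 2 and 6 at 4-fold. Family 25 there (7 and 4) gave 2 and 8 with hybridization scaling, 2 lower with the high floor, 7 lower with the floor at the 25th percentile, 4 higher with the median over probe sets, 2 lower with only genes above the floor, and 2 and 2 at 4-fold. The amino acid families (4 and 7) gave 0 higher with hybridization scaling, 1 and 4 with the high floor, 8 higher with the low floor, 1 and 4 with only genes above the floor, and 0 and 4 at 4-fold. In HPC (3 and 0) there were 6 higher with 75th percentile scaling, 5 with hybridization scaling, 5 with quantile normalization, 0 with the high floor, 1 with the median over probe sets and 0 at 4-fold, 1 lower with the low floor, and 11 and 6 without LT-HSC, a setting chosen after seeing the data. For LT-HSC against ST-HSC (9 and 7) the high floor gave 5 and 2, the low floor 19 and 14, the median over probe sets 5 higher, and 4-fold 0 and 3. Family 25 there (1 and 5) gave 2 higher with hybridization scaling, 0 and 1 with the high floor, 3 higher with the low floor, 8 lower with the median over probe sets, and 0 and 2 at 4-fold. The amino acid families there (8 and 2) gave 1 lower with hybridization scaling, 5 and 1 with the high floor, 16 and 7 with the low floor, 4 higher with the median over probe sets, 1 lower with the first probe set by name, and 0 and 1 at 4-fold. The 1 reversed direction was Slc38a9 between LT-HSC and ST-HSC, at -0.61 with the median over probe sets.

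Pathway list medians moved with scaling. Under hybridization scaling they were -0.86 (starvation response), -0.58 (mTORC1 sensing), -2.48 (synthetases), -0.13 (other mitochondrial transport) and -1.43 (import). The mTORC1 sensing median was 0.19 with 75th percentile scaling and 0.17 with quantile normalization. The synthetase median was -1.63 with the median over probe sets, and that of other mitochondrial transport was 0.03 with the high floor and 0 with either other probe set rule. The haem and iron-sulphur median was 0.56 with only genes above the floor. The median of all genes above the floor in granulocytes was -0.13 as deposited, 0.06 with 75th percentile scaling, -0.57 with hybridization scaling and -0.02 with quantile normalization. Signals near the floor of 120.1 limit the fold of any gene under it.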
